A study of Saccharomyces cerevisiae with 6 samples.

Results

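The transcript levels of a wine yeast in the stationary phase of a fermentation were set against those in mid-exponential growth, for all 6388 genes of the 6388 that the arrays listed in both phases. The genes were joined by systematic name, and no gene was chosen by its values. Each level is the authors' mean log2 intensity of a gene over both channels of 3 spotted two-colour arrays, so it averages a wild type and a mutant. The wild type was EC1118, an industrial Saccharomyces cerevisiae strain, and the mutant EKD-13 was EC1118 with both copies of KNR4 deleted. KNR4 encodes a protein tied to cell wall synthesis and to the cell wall integrity pathway. Both strains fermented 1 L of the synthetic medium MS300 at 28 °C and were sampled when 10 g of CO2 had been released (mid-exponential) or 70 g (stationary). Every one of the 6 arrays held mutant and wild-type RNA of the same phase, and no array held both phases.

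Each phase is therefore known from 1 deposited mean per gene, and a difference between the phases has no replicate error and no test. Phase and array cannot be told apart either. The deposited levels had a median of 7.93 and an interquartile range of 1.56 in mid-exponential phase, and of 7.49 and 1.03 in stationary phase. They were brought to one distribution by quantile matching, which gives genes of equal rank equal levels and removes any shift of the whole population of transcripts. All levels below are matched log2 intensities, all differences are stationary minus mid-exponential, and a rank of 1 is the brightest gene. Deposited levels did not go below 6.33 and 6.57, so differences of dim genes are understated. In bulk RNA, fewer cells with a transcript and less of it per cell cannot be told apart. The stationary arrays were sparser, with a log2 ratio on 53.1 to 60.6% of 15488 spots against 77.0 to 85.6% in mid-exponential phase. In the authors' deposited table KNR4 stood at -1.89 in the mutant against the wild type in mid-exponential phase (adjusted p = 2.7e-04) and at -1.74 in stationary phase (adjusted p = 2.5e-04). Markers of mating cells (24 genes) and of sporulating cells (52 genes) had median differences of 0.06 and 0.08 (0.57 and 0.58 with centred tables, where all genes had 0.11), and SPS100 was the only member of either list past 2-fold.

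When yeast cells run short of a nutrient they stop dividing while fermentation goes on. In growing cells much of the messenger RNA encodes ribosomal proteins, and these genes are turned down together when the TOR and protein kinase A pathways sense a lack of nitrogen or sugar. Under such limitation, genes for poor nitrogen sources are released from nitrogen catabolite repression, and the transcription factors Msn2 and Msn4 switch on a general stress response.

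At least 2-fold higher in stationary phase were 421 genes (6.59%), and at least 2-fold lower were 473 (7.40%) of the 6388. Past 4-fold were 70 genes on the higher and 118 on the lower side. The split depends on the scaling. With each table centred on its own median 276 genes were higher and 689 lower, and with no scaling 90 were higher and 1257 lower, the median of all genes then standing at -0.33 against 0.02 after matching. The order of genes was largely kept: across genes the levels of the phases had a Spearman correlation of 0.789, a description in which genes are not independent, and 57 of the 100 brightest genes were shared. Differences past 2-fold were concentrated among bright genes. By quartile of mean level, from the dimmest, 0, 25, 110 and 286 genes of 1597 were higher and 1, 34, 134 and 304 lower. Counts in the gene lists below are to be read against these and against the shares of all genes. Dubious reading frames of the nuclear chromosomes, 599 in all, had a median of 0.01, with 19 higher and 16 lower.

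**Figure D1:**
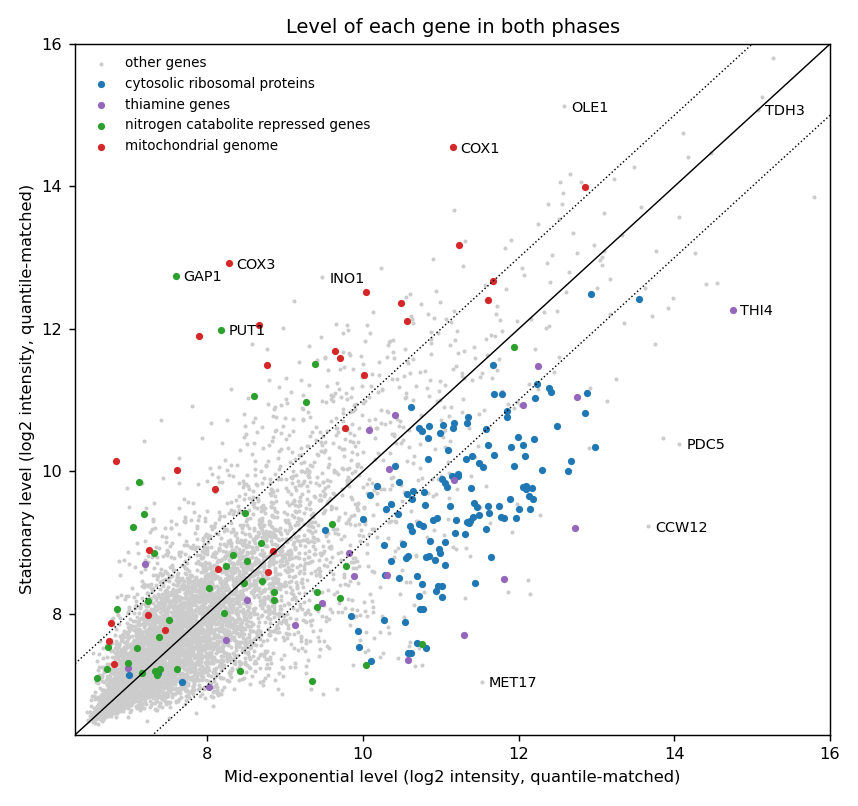
Level of each of the 6388 genes in mid-exponential phase (x axis) and stationary phase (y axis), in quantile-matched log2 intensity; each point is a gene, colours mark 4 gene groups, the solid line is equality and the dotted lines are 2-fold. Ribosomal protein genes (blue) lie below the line, with 105 of 137 past 2-fold, and most reading frames of the mitochondrial genome (red) lie above it.

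How far a single gene's difference can be trusted was gauged from the arrays themselves, with measures chosen after the values were seen. Genes printed in the same block of the array had block medians from -0.39 (block 30) to 0.57 (block 17) over 32 blocks. The medians of the 16 nuclear chromosomes ran only from -0.03 to 0.07. Of 24 pairs of near-identical genes, which can share labelled RNA, 20 had the same sign in both members, but their differences were a median of 0.85 apart and 10 pairs were at least 2-fold apart. The widest gap was 2.21, with RPS4A at -2.06 and RPS4B at 0.15. The elongation factor genes EFT1 and EFT2, which encode the same protein, stood at -0.49 and -2.57. HXT6 and HXT7, a pair of high-affinity glucose transporters, were as close as -0.15 and -0.17. Once block medians were subtracted the median gap was 0.69. A difference of 1 in a single gene is thus within the range seen between near-identical genes.

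**Figure D2:**
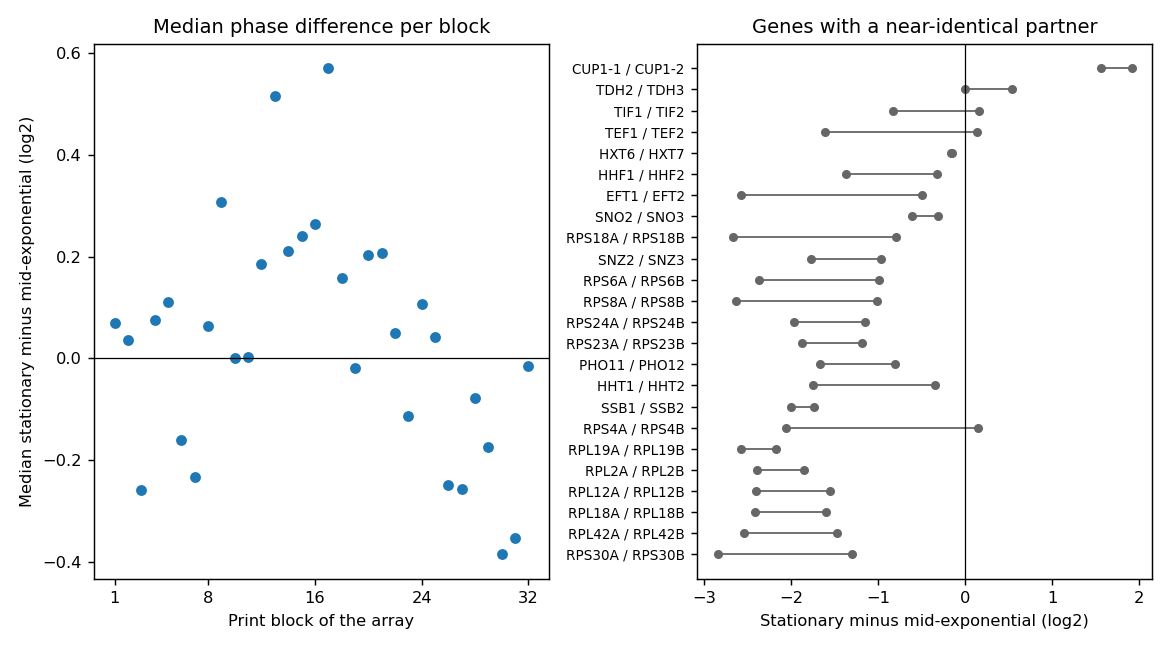
Left, the median difference in level (log2, stationary minus mid-exponential) of the genes in each of 32 print blocks; right, the difference of both members of 24 near-identical pairs, joined by a line. Block medians run from -0.39 to 0.57, and 10 pairs lie at least 2-fold apart.

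The genes furthest above their mid-exponential level were led by GAP1, the general amino acid permease. Its level was 7.59 in mid-exponential and 12.74 in stationary phase, a difference of 5.15 or 35.5-fold, from rank 3536 to rank 48. PUT1, the proline oxidase, stood at 8.18 and 11.98, and PUT4, the proline permease, at 7.11 and 9.85. COX3, COX2 and COX1, subunits of cytochrome c oxidase encoded in the mitochondrial genome, stood higher by 4.65, 4.00 and 3.39. MOH1, a stress and stationary phase gene, differed by 3.31, the seripauperin PAU5 by 3.27 and PIR3, a cell wall protein of the PIR family, by 3.21. GAC1, a regulatory subunit that directs protein phosphatase 1 to glycogen synthase, stood at 7.19 and 10.43. INO1, the inositol-3-phosphate synthase, stood at 9.48 and 12.72. GIT1, a glycerophosphoinositol permease, differed by 2.81. The other 8 of the 20 leading genes were Q0297, Q0092 and AI3 of the mitochondrial genome, RTS3, YFL064C, YOR292C, FMP48 and SNO4, at 2.68 to 3.39.

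Furthest below its mid-exponential level was MET17, the O-acetylhomoserine sulphhydrylase that fixes sulphide. It stood at 11.52 and 7.04, a difference of -4.48, from rank 155 to rank 5337. The stationary level is close to the median of the dubious nuclear reading frames, 6.98, and MET17 had no ratio on any stationary array, so this difference is a lower bound on its size. CCW12, a major mannoprotein of the cell wall of growing buds, went from 13.66 to 9.23 and from rank 20 to 874. ASC1, a protein of the small ribosomal subunit, differed by -3.87. PDC5, a pyruvate decarboxylase, stood at 14.06 and 10.38. SER3 (phosphoglycerate dehydrogenase), LYS9 (saccharopine dehydrogenase) and SHM2 (serine hydroxymethyltransferase), of the amino acid synthesis list, differed by -3.56, -3.39 and -3.20. MET6, the methionine synthase of the sulphur list, differed by -3.65, and GDH1, a glutamate dehydrogenase, by -3.19. PHO3, THI22, PET18 and THI5, all of the thiamine list, stood at -3.59, -3.52, -3.32 and -3.23. TIR1, an anaerobic cell wall mannoprotein, stood at -3.38. The remaining members of the 20 were DLD3 and CSS1 and the ribosomal protein genes RPL20A, RPL16B, RPS26A and RPS0A, at -3.08 to -3.47. These ribosomal genes were printed in blocks 30 and 31, whose medians of -0.39 and -0.35 were low. With block medians subtracted they stood at -2.90, -2.81, -2.78 and -2.72. CCW12, PDC5 and TIR1 were also in block 30 and MET6 in block 31. All 40 leading genes kept their direction and stayed past 2-fold with centred tables and with no scaling.

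**Figure D3:**
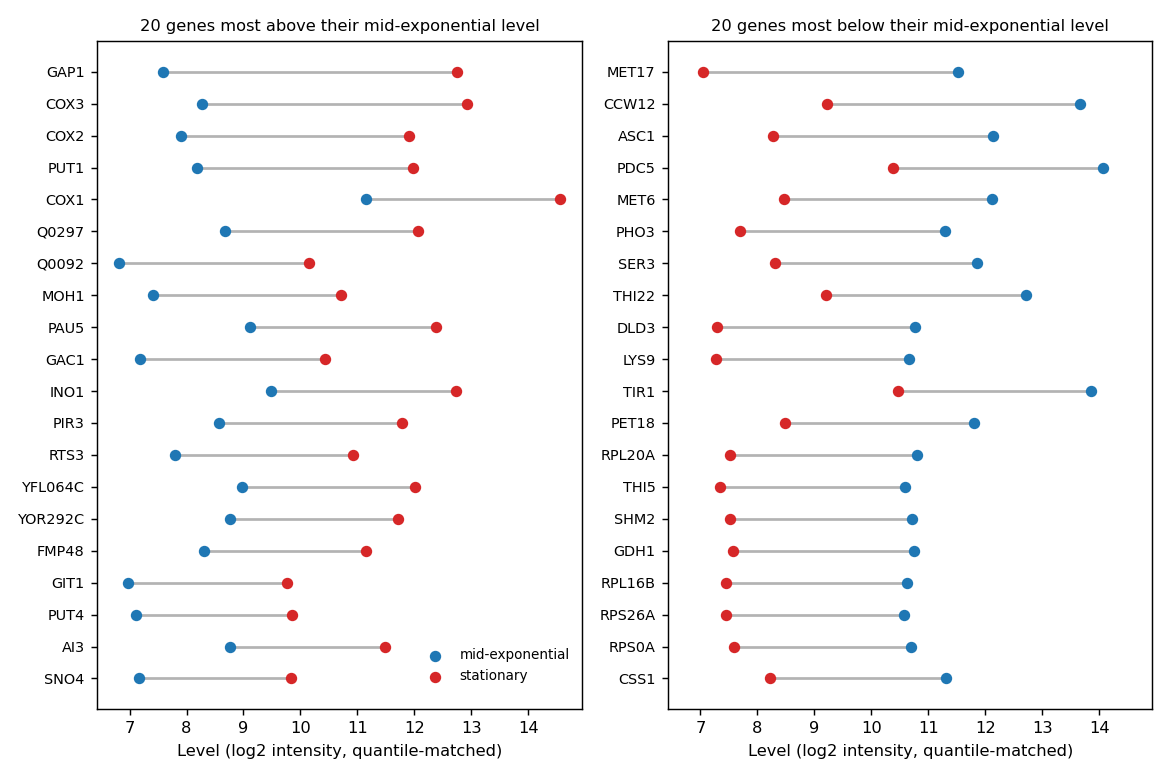
Mid-exponential (blue) and stationary (red) levels, in quantile-matched log2 intensity, of the 20 genes furthest above (left) and the 20 furthest below (right) their mid-exponential level; 1 point is 1 deposited mean. GAP1 spans 7.59 to 12.74 and MET17 spans 11.52 to 7.04.

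The cytosolic ribosomal proteins had the lowest median difference of the 41 gene lists, -1.74. Of their 137 genes 135 were below 0, and 105 (76.6%) were at least 2-fold lower, against 7.40% of all genes; none was 2-fold higher. The large and the small subunit were alike, with medians of -1.72 over 76 RPL genes and -1.82 over 56 RPS genes. RPL3 stood at 11.44 and 8.43 and RPS30A at 11.64 and 8.80, whereas RPL35B, at 10.61 and 10.90, and RPL10, at 11.67 and 11.49, were near the same level in both phases. Many of these genes are pairs of near-identical copies, so the count overstates how many separate measurements it holds. With no scaling the list's median was -2.78, which is -2.45 from that of all genes. Many other lists had medians further below that of all genes with no scaling than after matching. They included the tRNA synthetases (-1.24 against -0.64), the vacuolar ATPase (-1.34 against -0.70) and the proteasome (-0.85 against -0.40). Translation factors (-0.86 against -0.51), the tricarboxylic acid cycle (-0.86 against -0.51) and amino acid synthesis (-0.99 against -0.62) were others. The same held for lists of other kinds, such as histones (-1.69 against -0.75), thiamine genes (-1.73 against -1.23) and glycolysis and ethanol formation (-0.56 against -0.06). Some lists went the other way, such as mitosis and cytokinesis (-0.45 against -0.50).

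Genes that build ribosomes were near the level of all genes in both phases. The 129 factors of ribosome biogenesis had a median of 0.12 (-0.33 with no scaling, the same as all genes), with 8 higher (5 after print block medians were subtracted) and 4 lower, and the 26 subunits and factors of RNA polymerases I and III a median of 0.07, with none past 2-fold. Within the biogenesis list NOP56 and NOP58, core proteins of the snoRNA particles that guide rRNA methylation, stood at -1.31 and -1.26, while KRI1 and RRS1, of ribosome assembly, stood at 1.71 and 1.67. The 19 tRNA synthetases had a median of -0.62 with 8 lower, among them SES1 (10.04 and 7.74) and CDC60 (8.96 and 7.25), the seryl and leucyl enzymes. Of 39 translation factors 7 were lower and 2 higher, with a median of -0.49. TEF4, a gamma subunit of elongation factor 1B, stood at 10.13 and 8.09, and HYP2, the translation factor eIF5A, at 11.17 and 12.25. The 72 genes of the mitochondrial ribosome had a median of -0.10, with 1 gene past 2-fold on each side.

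Genes for nitrogen use included members past 2-fold on both sides. The 44 genes under nitrogen catabolite repression had a median of 0.31, which turned to -0.29 with no scaling. At least 2-fold higher were 10 (22.7%, against 6.59% of all genes) and lower were 8 (18.18%, against 7.40%). Bright genes in general had similar shares: the highest quartile of mean level had 17.91% higher and 19.04% lower. The third quartile had 6.89% and 8.39%. Whether the list's spread exceeded that of genes of like level was not tested. Transport and breakdown of proline and ammonium uptake were on the higher side: beside GAP1, PUT1 and PUT4, PUT2 of proline breakdown stood at 9.38 and 11.50, and MEP2, the ammonium permease and sensor, at 8.60 and 11.05. GAT1, an activator of this regulon, stood at 7.18 and 9.40, and DAL5, the allantoate permease, at 7.05 and 9.22. On the lower side were GDH1, ARO10 (10.04 and 7.29) and ARO9 (9.34 and 7.06), the decarboxylase and transaminase of aromatic amino acid breakdown, and AGP1 (9.41 and 8.09), a broad amino acid permease. The urea and ureidoglycollate genes DUR3 and DAL3 were at -0.13 and 0.42. Among 25 amino acid permeases and their sensors 4 were higher and 5 lower. BAP3, GNP1 and AGP1, which the SPS sensor induces when amino acids are present outside the cell, differed by -2.09, -1.25 and -1.31.

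Of 70 genes of amino acid synthesis 26 (37.1%) were lower and 5 higher, with a median of -0.60. HIS4 (9.67 and 6.94), HOM6 (11.38 and 8.82) and ILV5 (11.97 and 9.54), of histidine, homoserine and branched-chain amino acid synthesis, were among the lower ones. Among the arginine genes of the list ARG3 stood at 10.93 and 12.53, CPA1 at 9.09 and 10.73, and ARG8 at 8.70 and 9.83. Not past 2-fold were ARG1 at 0.87, ARG2 at 0.45, ARG56 at 0.38, ARG4 at -0.08 and ARG7 at -0.23. GCN4, the activator of these pathways, which is controlled mainly at translation, stood at 10.31 and 11.77. In the sulphur list 8 of 33 genes were lower (24.2%, against 7.40% of all genes) and none higher. Its median was near 0, at -0.06, with 14 genes above 0 and 19 below. The lower ones included MET3 (9.34 and 6.94), MET14 (10.44 and 7.38), MET5 (9.49 and 6.88) and MET10 (10.33 and 7.73), which activate and reduce sulphate. Their regulators MET4, MET31 and MET30 stood at 0.41, 0.87 and 0.78. In purine, pyrimidine and one-carbon synthesis 14 of 43 were lower and 3 higher, with a median of -0.48 (-1.34 with no scaling). ADE17, of the last steps of IMP synthesis, stood at 11.16 and 8.94, and IMD4, an IMP dehydrogenase with close relatives, at 9.88 and 7.29. URA8, a CTP synthase, stood at 8.15 and 10.05.

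The thiamine genes formed the second lowest list. Of 22 genes 13 (59.1%) were lower and 1 was higher, with a median of -1.20. THI4, which makes the thiazole part of thiamine, was the fifth brightest gene in mid-exponential phase, at 14.75, and ranked 75 in stationary phase, at 12.27. THI20 and THI6, of thiamine phosphate synthesis, differed by -1.30 and -1.32. THI5, THI11, THI12 and THI13, near-identical copies of the pyrimidine branch, stood at -3.23, -1.12, -1.69 and -0.76, and can share RNA. The exception was THI2, an activator of the pathway, at 7.20 and 8.69. The transporter gene THI7 stood at 10.07 and 10.58.

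Of 33 genes of glycolysis and ethanol formation 11 were lower and 2 higher. Their median of -0.03 depends on the setting: it was -0.45 with centred tables, -0.89 with no scaling, -0.18 from wild-type and -0.31 from mutant levels, and -0.27 after print block medians were subtracted. The brightest genes of both phases came from this pathway. The glyceraldehyde-3-phosphate dehydrogenase gene TDH1 ranked 1 in mid-exponential and 16 in stationary phase (15.80 and 13.85), while TDH2 ranked 2 and 1. The relatives ENO1 and ENO2, enolases, stood at -1.91 and 0.13, and the pyruvate decarboxylase genes PDC1 and PDC5 at 0.64 and -3.67. FBA1 (aldolase) stood at 13.75 and 11.79, PGK1 (phosphoglycerate kinase) at 14.41 and 12.63, and TPI1 (triose phosphate isomerase) at 12.27 and 9.39. ADH1, the main alcohol dehydrogenase, had rank 7 in both phases. At the entry of the pathway HXK2 stood at 10.21 and 7.39 and GLK1, the glucokinase, at 9.78 and 11.09. PFK27, which makes the activator of phosphofructokinase, stood at 8.61 and 10.75. Hexose transporters had 1 gene of 25 (4%) past 2-fold on each side, against 6.59% and 7.40% of all genes. These were HXT5 at 6.84 and 8.03 and HXT4 at 13.71 and 12.18. HXT3 was bright in both phases, at 13.23 and 14.11. In the glycerol and acetate list GPD1, the first enzyme of glycerol synthesis, and ALD6, the main acetaldehyde dehydrogenase, stood at -1.23 and -1.93, and ACS1, an acetyl-CoA synthetase, at 1.85.

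Mitochondrial functions differed among themselves. The reading frames of the mitochondrial genome, a group chosen after the values were seen, stood above most other genes in this comparison: 19 of 28 were at least 2-fold higher and none was lower, with a median of 1.59 (1.23 with centred tables, 0.79 with no scaling). Its 8 main protein genes were all above 0 under each of these scalings and had a median of 2.45. Beside COX1, COX2 and COX3 they were ATP8 at 2.48, VAR1 at 2.41, ATP6 at 1.54, OLI1 at 1.13 and COB at 1.01. These transcripts are made by the mitochondrial RNA polymerase, and how well they are labelled depends on the priming used, which the labels do not give.

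The nuclear genes of the respiratory chain had a median of 0.51 over 41 genes, 0.21 with centred tables and -0.23, below 0, with no scaling, when all genes had -0.33. At least 2-fold higher were 12 (29.3%), and none was lower; 7 were higher after print block medians were subtracted. They included COX7 (7.64 and 10.18), COX5A (8.58 and 10.69) and COX13 (8.50 and 10.53) of cytochrome c oxidase, QCR8 (9.17 and 11.54) of the bc1 complex, and ATP1 and ATP2, the main subunits of the ATP synthase head, at 1.03 and 1.44. HAP4, the regulated activator of respiratory genes, stood at 9.20 and 10.33. Of 20 genes of the tricarboxylic acid cycle 6 were lower and 1 was higher, with a median of -0.49. ACO1, CIT1, IDH1 and IDH2, which lead from oxaloacetate to 2-oxoglutarate, stood at -2.53, -1.47, -2.40 and -1.25, and PYC1, a pyruvate carboxylase, at -2.11, while SDH4, of succinate dehydrogenase, stood at 1.42. The 27 genes of the glyoxylate cycle, gluconeogenesis and fatty acid oxidation, known from growth on ethanol or fatty acids, had a median of 0.21. They had 1 gene (3.70%) past 2-fold on each side, CAT8 and CIT2, against 6.59% and 7.40% of all genes. ICL1, FBP1 and PCK1 stayed dim, at 6.96, 6.99 and 7.09 in stationary phase. CAT8, an activator of gluconeogenic genes, stood at 6.79 and 7.93, and CIT2, the peroxisomal citrate synthase, at 10.79 and 8.30.

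Stress and starvation genes lay on both sides. Of 48 genes of the Msn2/Msn4 list 10 (20.8%, against 6.59% of all genes) were higher and 5 (10.4%, against 7.40%) lower. Their median of 0.37 turned to -0.14 with no scaling. YRO2, a plasma membrane protein, stood at 10.24 and 12.85, and YGP1, a secreted glycoprotein of starved cells, at 9.31 and 11.76. MSN2 and MSN4 themselves stood at 1.15 and 1.27. HSP26 stood at 8.64 and 10.55, and HSP12, just short of 2-fold, at 6.86 and 7.86. The disaggregase gene HSP104 and the polyubiquitin gene UBI4 were lower, at -1.52 and -1.26. The 4 genes of the trehalose synthase complex were all lower, with TPS1 at 9.20 and 7.61, TPS2 at 8.61 and 7.34, TSL1 at 8.44 and 7.08 and TPS3 at 8.49 and 7.32. The trehalase genes NTH1, NTH2 and ATH1 stood at 0.60, 1.27 and 0.82. Among genes known from starved or desiccated cells 7 of 30 were higher (23.3%) and 2 lower (6.67%). The higher ones included SIP18, a hydrophilin, at 7.42 and 9.90, SPG1 at 7.30 and 9.30 and SPG5 at 7.33 and 8.93.

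Chaperones had 9 of 60 lower (5 after print block medians were subtracted) and 3 higher. SSB1 and SSB2, which fold new chains on the ribosome, stood at -2.00 and -1.74, SSA1 at -1.75 and HSP82 at -1.45, against 1.89 for SSA3 and 1.51 for HSP31. In the proteasome list 6 of 35 genes were lower (17.1%, or 3 genes after the block step) and 1 higher (2.86%). The higher one was RPN4, the activator of proteasome genes, at 8.42 and 10.30, while RPN6 stood at 10.49 and 8.61. Autophagy genes had a median of 0.28 (-0.05 with no scaling) with 4 of 38 higher and 1 lower. ATG8, the ubiquitin-like protein of the autophagosome, stood at 7.38 and 8.93, ATG1, the kinase that starts autophagy, at 7.24 and 8.39, and ATG32, the receptor for mitochondria, at 7.24 and 8.41. The vacuolar proteases PEP4 and PRB1 stood at 1.12 and 1.38, and the list of 15 had a median of 0.50 that was below 0 with centred tables (-0.09) and with no scaling (-0.52). The proton pump of the vacuole was lower, with 6 of 16 genes past 2-fold, none higher and a median of -0.67, among them VMA13 (9.43 and 7.41) and VMA5 (9.06 and 7.25). Oxidative stress defence had no more genes past 2-fold than all genes did. Higher were 2 of 38 (5.26%, against 6.59% of all genes), SOD1 (10.61 and 12.49) and GTT2 (8.25 and 10.02). Lower was 1 (2.63%, against 7.40%), GRX3.

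The seripauperins, a multigene family expressed mostly without oxygen, had the highest median of the 41 lists, 0.76 over 24 genes, with 10 (41.7%) higher and none lower; it was 0.24 with centred tables and below 0, at -0.20, with no scaling. PAU16 stood at 9.75 and 11.94 and PAU1 at 10.08 and 9.11. Since PAU sequences are so alike, a probe may pick up RNA of several members. Of 28 DAN, TIR and other anaerobic genes 3 were higher (10.7%) and 4 lower (14.3%), with DAN1 at 11.58 and 9.80 and TIR2 at 12.52 and 11.61. In the cell wall list 14 of 63 genes were lower (22.2%, against 7.40% of all genes) and 9 higher (14.3%, against 6.59%), with a median of -0.17. The highest quartile of mean level had similar shares, 19.04% lower and 17.91% higher. On the lower side CIS3, HSP150 and PIR1, of the PIR family like PIR3, stood at -3.05, -2.15 and -1.27. SUN4, BGL2 and CWP2, other wall proteins, stood at -1.96, -1.66 and -1.95. CTS1, DSE2 and EGT2, which separate daughter from mother cells, stood at -2.09, -1.41 and -1.17. On the higher side were TIP1 (10.05 and 12.05), PST1 (9.51 and 11.59) and ECM33 (10.83 and 12.21), mannoproteins, KRE6, of beta-1,6-glucan synthesis, at 1.42, and GSC2, the alternative glucan synthase, at 1.06.

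**Figure D4:**
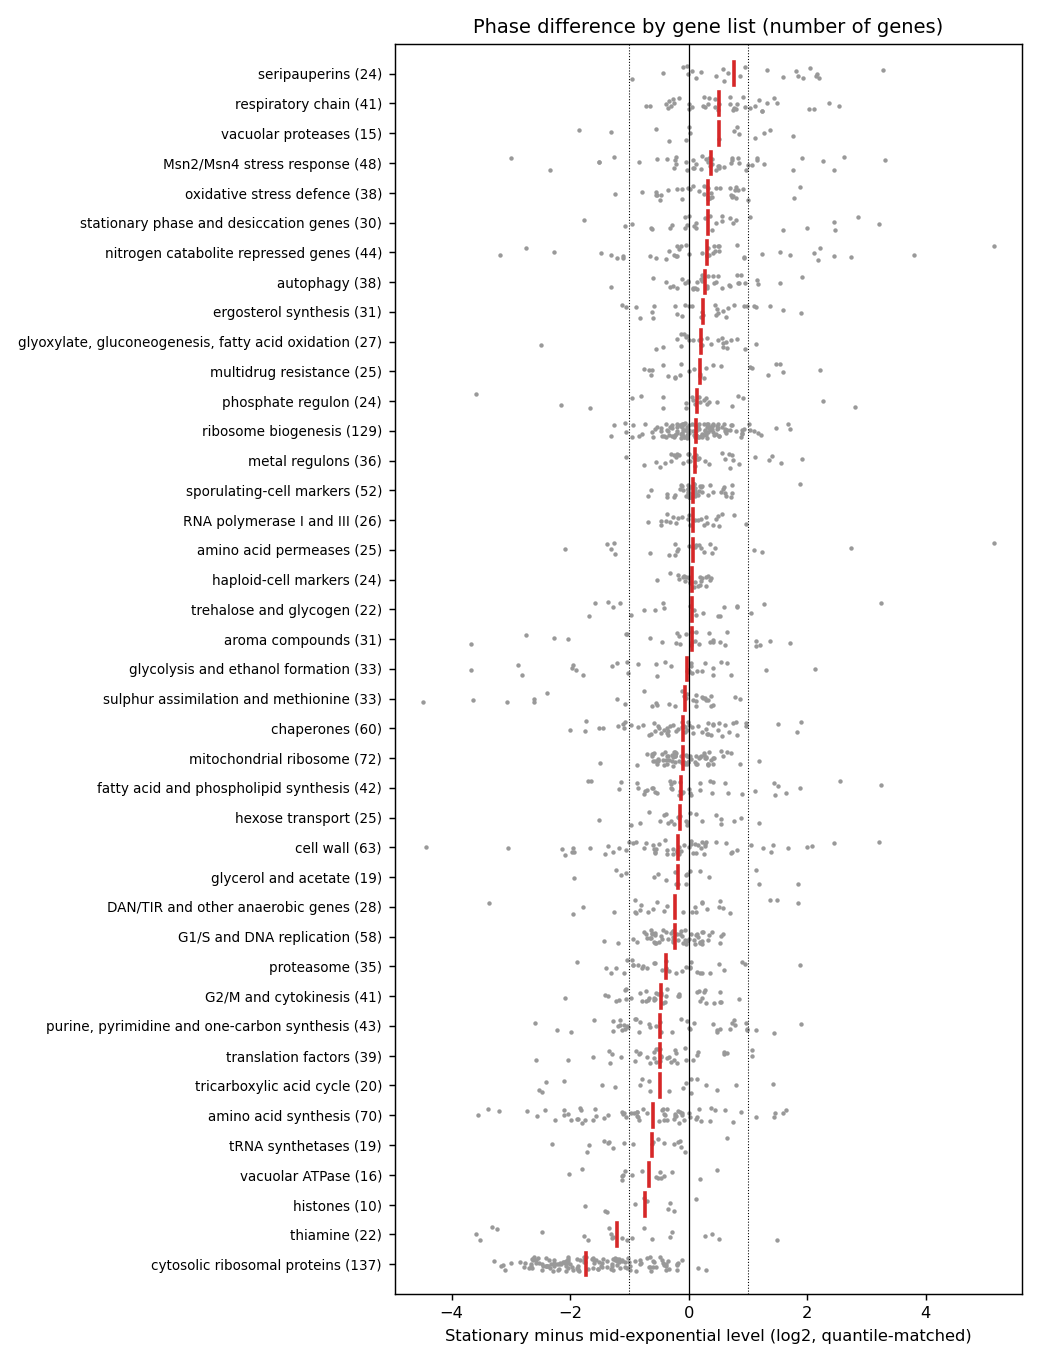
Difference in level (log2, stationary minus mid-exponential, quantile-matched) of each gene (grey points) in 41 gene lists with the number of genes in brackets; red bars are medians and dotted lines mark 2-fold. Medians run from -1.74 for cytosolic ribosomal proteins to 0.76 for seripauperins; with no scaling 16 of the 20 medians above 0, those of seripauperins, the respiratory chain, vacuolar proteases and nitrogen catabolite repressed genes included, fell below 0.

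Lipid genes past 2-fold were found on both sides. In ergosterol synthesis 5 of 31 were higher (16.1%, against 6.59% of all genes) and 2 lower (6.45%, against 7.40%). ERG25, ERG11 and ERG5, enzymes of the late pathway, stood at 1.90, 1.59 and 1.38, while HMG1 and ERG1 stood at -1.12 and -1.05. The list's median of 0.24 turned to -0.28 with centred tables and to -0.72 with no scaling. In fatty acid and phospholipid synthesis 8 of 42 were higher and 4 lower. OLE1, the acyl-CoA desaturase, stood at 12.58 and 15.13 and was the third brightest gene in stationary phase. FAS1, a fatty acid synthase subunit, stood at 10.62 and 12.13, and the elongase genes ELO1 and ELO3 stood at -1.17 and -1.70. PAH1 and DGA1, which lead to storage lipid, stood at 1.87 and 1.43.

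No cell division list held a gene past 2-fold higher. Of 10 histone genes 9 were below 0 and 3 past 2-fold, with a median of -0.73 (-1.59 with centred tables, -2.03 with no scaling). In the list of mitosis and cytokinesis 8 of 41 were lower and none higher, with CLB2, the main mitotic cyclin, at 8.13 and 6.89. In the list of the G1/S step and DNA replication 2 of 58 were past 2-fold, POL30 (8.12 and 6.92), the sliding clamp, and RNR1 (9.34 and 7.91), the large subunit of ribonucleotide reductase. Phosphate genes had 2 of 24 higher (8.33%, against 6.59% of all genes), GIT1 and PHM8. Lower were 3 (12.5%, against 7.40%), the acid phosphatase genes PHO3, PHO5 and PHO11. Of 36 genes for metals 5 were higher (13.9%, or 3 genes after print block medians were subtracted) and 1 lower (2.78%). The higher ones included the metallothionein copies CUP1-1 and CUP1-2 at 1.56 and 1.91 and FTR1, the iron permease, at 1.36. Drug efflux genes had 7 of 25 higher (28.0%, against 6.59% of all genes) and none lower, led by RSB1 (7.63 and 9.84) and TPO2 (8.94 and 10.54). Of these genes 5 were higher after the block step. In the aroma list 5 of 31 were higher (16.1%, against 6.59% of all genes) and 6 lower (19.4%, against 7.40%), with a median of 0.05. The highest quartile of mean level had similar shares, 17.91% and 19.04%. After the block step 3 were higher and 5 lower. Of the 5 higher genes 4 were aryl-alcohol dehydrogenase genes such as AAD3 (8.15 and 9.85). ATF1, the main acetate ester synthase, stood at 8.10 and 8.15.

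Whether the phase difference was shared by the strains was described from levels rebuilt for each strain as the mean level plus or minus 0.5 times the authors' log2 fold change. Of the 421 genes that were higher, all 421 were above 0 in both strains and 329 were past 2-fold in both, 57 in the wild type alone and 34 in the mutant alone. Of the 473 lower genes all 473 were below 0 in both strains, with 393 past 2-fold in both, 51 in the wild type alone and 29 in the mutant alone. Since the pooled level is the mean of the strains, these counts are not independent of the calls. The median absolute gap between the strains' phase differences was 0.12. Ribosomal proteins had a median of -1.80 in the wild type and -1.64 in the mutant, and thiamine genes of -1.14 and -1.20. The wild type had larger medians for the seripauperins (1.10 against 0.60) and the Msn2/Msn4 list (0.55 against 0.14). The mutant had larger ones for ergosterol synthesis (0.42 against 0.18), vacuolar proteases (0.66 against 0.35) and the Ty retrotransposons, a group of 88 chosen after the values were seen (0.66 against 0.11). These gaps were not tested.

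**Figure D5:**
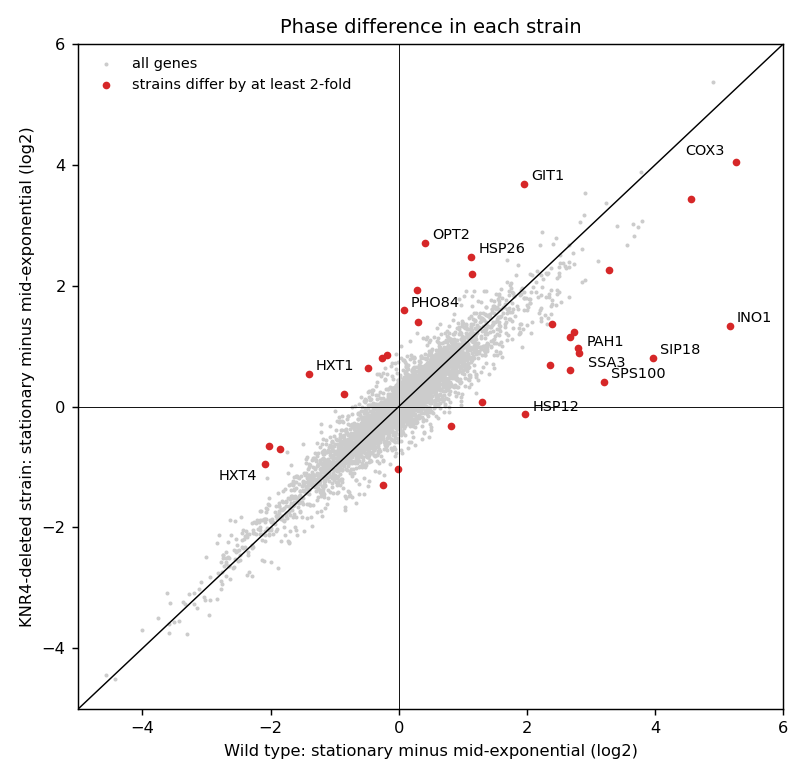
Difference in level (log2, stationary minus mid-exponential) in the wild type (x axis) and in the KNR4-deleted strain (y axis), 1 point per gene; the line is equality and the 33 red genes differ between strains by at least 2-fold. INO1 stands at 5.16 in the wild type and 1.34 in the mutant.

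The phase difference of 33 genes differed between the strains by at least 2-fold. With its sign, it was higher in the mutant for 15 and in the wild type for 18. Higher can mean a smaller fall, as for HXT4 (-2.08 in the wild type and -0.94 in the mutant). These 33 genes were picked by the gap between the strains. INO1 was the widest: its level went from 8.52 to 13.68 in the wild type and from 10.41 to 11.74 in the mutant. The array log2 ratios of INO1, mutant over wild type, were 2.75, 3.07 and 2.48 on the mid-exponential arrays and -2.64, -2.59 and -3.18 on the stationary ones, so the phases did not overlap. HXT1, a low-affinity glucose transporter, stood at -1.41 in the wild type and 0.54 in the mutant, so its pooled difference of -0.35 averages opposite directions. Its array ratios were 0.27, -0.07 and 0.09 in mid-exponential and 2.17, 2.12 and 2.38 in stationary phase, again without overlap. OPT2, an oligopeptide transporter, stood at 0.42 in the wild type and 2.71 in the mutant, with array ratios of -0.54, -0.11 and 0.75 in mid-exponential and 2.56, 4.52 and 2.02 in stationary phase.

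Among the 18 genes with the higher difference in the wild type, SIP18 differed by 3.97 in that strain and 0.81 in the mutant, SSA3 by 2.81 and 0.89, PAH1 by 2.80 and 0.97, and HSP12 by 1.97 and -0.13. The mutant levels of HSP12, 6.69 and 6.56, were near the floor of the intensities, and most arrays gave no ratio for it. The stationary array ratios of SIP18 were -4.78, -1.71 and -6.40, all below its mid-exponential ratios of 0.06, -0.61 and -0.47. In the authors' deposited table the stationary strain difference had an adjusted p of 0.0042 for SIP18 and 1.6e-04 for SSA3, PAH1 and INO1. For SPS100, at 3.20 in the wild type and 0.41 in the mutant, it was 0.13. All were picked by a gap built from the same fold changes, so these p-values are no separate support. HSP26 had the opposite pattern, 1.13 in the wild type and 2.48 in the mutant, from a mutant level that was lower in mid-exponential phase. Of the 40 leading genes, 5 were among the 33. Beside INO1 they were COX3 (5.26 in the wild type and 4.05 in the mutant), COX2 (4.56 and 3.43), FMP48 (3.28 and 2.26) and GIT1 (1.96 and 3.68). The mid-exponential array ratios disagreed for COX3 (-0.33, 2.43 and -0.62) and COX2 (-0.44, 2.95 and -0.15), the high value being that of the array with exchanged dyes. The stationary ratios were -1.15, -0.89 and -1.48 for COX3. Those of COX2 were -0.36, -1.07 and -1.675, which overlapped its mid-exponential ones. Gaps were smaller for GAP1 (4.91 and 5.38), PUT1 (3.77 and 3.88), MET17 (-4.58 and -4.44) and CCW12 (-4.43 and -4.50). Among the 421 higher genes the authors' deposited table called a strain difference for 77 in mid-exponential phase, where it called 10.3% of all genes, and for 58 in stationary phase, where it called 4.18%. Among the 473 lower genes the authors' deposited table called 100 and 33.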

How the data were processed

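For each phase the authors deposited a table of 6388 genes from limma. Per the file headers, its columns hold the mean log2 intensity, the log2 fold change of mutant over wild type and the t score. The authors also deposited a raw and an adjusted p-value per gene, and the stationary table adds a linear fold. A further table, deposited by the authors, gives log2 ratios per spot and array. The submitters' processing notes name R 2.9.2 and limma; not given in the sources used here were the limma version, background correction, normalization and intensity scale. RNA was extracted with Trizol and 5 µg was labelled, per the labels' protocols. The arrays of a phase used separate fermentations, and some vessels were sampled in both phases.

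Tables were joined by systematic name and quantile-matched to the mean of their sorted values with Python 3.11.15, numpy 2.4.6 and pandas 2.3.3. A gene was counted at a matched difference of at least 1 on the log2 scale. The code for matching and counting was run on simulated levels in which few genes changed, about equally often in both directions. That simulation held no print block shifts and no lopsided change, so it cannot show how the matching behaves where these occur. No test of the phases was possible. The leading genes are the 20 highest and 20 lowest differences among the 5331 genes above the lowest quartile of level in at least 1 phase; in each list the 4 highest and 4 lowest members were eligible, and every member of lists of up to 40. Other genes named, RPS30A, RPL10, MSN2, MSN4, HSP12 and HSP26 among them, were chosen after their values were seen. The 41 lists and the genes described were chosen with earlier results of these data known. Of the 6388 genes, 5849 were found in the RefSeq annotation of the R64 assembly and 539 kept the files' names. Array ratios were averaged over the spots of a well, and 228 genes of row E of plates 10 to 19, whose well names were unreliable, were left out of them. Promoter motifs were planned and not analysed here, because no sequence was used.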

Additional observations from a re-analysis of the deposited data

Results flagged for a closer look

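INO1 drew attention because its strain difference turned between the phases on every array. The mean of the 3 array log2 ratios, mutant over wild type, was 2.76 in mid-exponential and -2.80 in stationary phase. The authors' log2 fold changes were smaller in size, 2.16 and -2.28. With levels rebuilt from those fold changes, the pooled phase difference of 3.24 averages 5.16 in the wild type and 1.34 in the mutant. The difference between the phases was not tested here. Of the 40 leading genes 25 had a ratio on all 6 arrays, and INO1 was the 1 among them whose ratios were all of one sign in the first phase and all of the other in the second.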

How the results depend on the processing

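With each table centred on its median, 276 genes were at least 2-fold higher, and the list medians were -2.34 for cytosolic ribosomal proteins, 0.21 for the respiratory chain, -0.88 for amino acid synthesis, 0.24 for seripauperins, -1.62 for thiamine genes and -0.085, below 0, for vacuolar proteases. With no scaling, 90 genes were higher and 1257 lower, and the medians were -2.78 for cytosolic ribosomal proteins, -1.32 for amino acid synthesis and -2.06 for thiamine genes. With no scaling the sign turned for the respiratory chain (-0.23), vacuolar proteases (-0.52), nitrogen catabolite repressed genes (-0.29) and seripauperins (-0.20). The median of all genes was then -0.33; relative to it, 35 of the 41 lists kept their side, and oxidative stress defence, vacuolar proteases, ergosterol synthesis, the phosphate regulon, trehalose and glycogen, and aroma compounds did not. From wild-type levels alone the seripauperin median was 1.10. Leaving out dim genes, chromosome XII or row E, using mutant levels or subtracting print block medians (chosen after seeing the data) turned no leading gene that had a value (35 of 40 without chromosome XII, 39 without row E, 40 otherwise) and kept both counts over all genes within 1.5 times; after the block step 332 genes were higher and 457 lower, of which 311 and 399 were among the 421 and 473. By difference of percentile ranks, no leading gene turned either. No paired analysis was possible because the phase differences come from 1 deposited mean per phase and from no test, and for the same reason no array could be left out. The number of arrays, the floor of the intensities and the sparser stationary arrays limit what dim genes can show.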
